A study of Mus musculus with 4 samples.

Results

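The nuclear genes for subunits of the 5 oxidative phosphorylation complexes were examined in mouse embryonic stem cell aggregates with and without induction of the Isl1-Lhx3 fusion. Members were taken by gene symbol, as every gene unit whose symbol began with Nduf followed by a, b, c, s or v and a digit, was Sdha, Sdhb, Sdhc, Sdhd or Cyc1, began with Uqcr or Atp5, or fitted the pattern of the Cox4 to Cox8 subunit genes. This gave 84 of 21822 gene units, with 38 in complex I, 4 in complex II, 9 in complex III, 16 in complex IV and 17 in complex V. The complex I set included Ndufs5-ps, a transcribed pseudogene that encodes no subunit. The pattern left out Cox4i1, Cox4i2 and Ndufab1, which are described with the other genes of the pathway. The symbol rule itself uses no measured value, but it was set with earlier results of these data known.

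The cells were iMN-ESCs, mouse embryonic stem cells on a C57BL/6 background that carry a doxycycline-inducible fusion of the motor neuron factors Isl1 and Lhx3. Cells of both groups were aggregated for 2 days in stem cell medium with LIF and treated for 2 days with 0.5 µM all-trans retinoic acid. They then spent another 2 to 3 days in retinoic acid, either without doxycycline (no Dox, 2 libraries) or with 2 µg/mL doxycycline (Dox, 2 libraries), with biological duplicates in each group. Every library therefore came from cells that carried the transgene and had received retinoic acid, and an effect of doxycycline itself cannot be told apart from an effect of the fusion. Doxycycline is known to slow protein synthesis on mitochondrial ribosomes, which make the few subunits encoded in mitochondrial DNA. Those mitochondrially encoded genes were not analysed here.

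Oxidative phosphorylation passes electrons from NADH (through complex I) and succinate (through complex II) to ubiquinone, on to cytochrome c through complex III and to oxygen through complex IV. Complexes I, III and IV pump protons across the inner mitochondrial membrane, and complex V, the ATP synthase, uses the gradient to make ATP. Pluripotent cells rely strongly on glycolysis, and neurons depend on oxidative phosphorylation. Transcription of many nuclear subunit genes is known to involve NRF1 and the ETS factor GABPA, with PGC-1α (Ppargc1a) as a coactivator.

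The labels were checked with the fused genes, and Lhx3 (0.404 and 0.286 CPM without Dox, 125 and 108 CPM with Dox) and Isl1 (3.08 and 5.84 CPM against 104 and 82.4 CPM) followed them in all 4 libraries. CPM scale a gene's counts to a common library total, adjusted by TMM, and the totals ran from 24020832 to 53903936. All 4 motor neuron markers (Mnx1, Chat, Slc18a3 and Slc5a7) rose, and their summed level was 1.67 to 3.08 CPM without Dox and 111 to 114 CPM with Dox. The neuron markers Tubb3, Map2, Stmn2 and Elavl3 had log2 fold changes of -0.67 to -0.43 with 0 of 4 called (2 lower at an unadjusted p under 0.05), and their summed level was 221 to 259 CPM without Dox and 132 to 178 CPM with Dox. For the neural progenitor markers Sox2, Pax6 and Nes, 0 of 3 called, it was 390 to 497 CPM and 221 to 318 CPM. Parietal and visceral endoderm markers, led by Col4a1, summed to 32250 to 33490 CPM without Dox and 32580 to 36120 CPM with Dox (0 of 6 called). Col4a1 and Lama1 gave nearly all of this sum. The means over the 4 libraries were 188 CPM for Gata6, 93.7 for Sox17, 5.08 for Ttr and 1.08 for Afp. The summed stem cell markers were at most 6.21 CPM (0 of 3 called). Fibroblast markers summed to 15.8 to 18.7 CPM without Dox and 40.5 to 44.4 CPM with Dox, and 1 of 2 tested, Col1a1, rose. In such bulk samples, fewer cells of a type and less RNA per cell cannot be told apart. The part of this cell makeup in the values of the subunit genes was not tested.

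No subunit gene was called higher or lower with Dox in any of the 5 complexes. Of the 84 members, 80 had enough counts to be tested, and 0 passed an adjusted p of 0.05 in edgeR's quasi-likelihood test over all 14283 genes, in which 1.28% of genes were called, 1.23% higher and 0.056% lower. At an unadjusted p under 0.05 the number was also 0, where 10.3% of all genes tested passed, 6.26% higher and 4.02% lower. DESeq2 and limma-voom likewise called 0 members. The lowest unadjusted p of any member was 0.102 and its adjusted p was 0.62. The median log2 fold change of the members was -0.09 (quartiles -0.14 and 0.01), against -0.01 over all genes tested (quartiles -0.15 and 0.14). Of the members 57 (71.25%) lay below 0 and 23 above, against 52.9% of all genes below 0. Most members have transcripts under 1000 nt. Over the 948 tested genes of that length with a count in every library, the median was -0.06 and 576 of the 948 lay below 0. This small downward median depended on 1 library: it became 0.08, with 22 of 80 members below 0, without no Dox replicate 2. The libraries with Dox lay wholly below those without Dox in 9 members and wholly above in 4, together 16.25% of those tested. Over all genes tested the groups lay apart in 38.8%, with Dox below in 19.9% and above in 18.9%.

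A missed threshold does not show that a gene stayed the same, so the intervals of the differences are given. The 95% interval from the edgeR fit lay within a 2-fold change in either direction for 69 of 80 members and within a 1.5-fold change for 48. Among the 65 members with a mean of at least 10 CPM, log2 fold changes ran from -0.42 to 0.08, and the intervals of 64 lay within a 2-fold change, the exception being Ndufa1 (lower bound -1.02). The other wider intervals belonged to members under 10 CPM. When the design was simulated with 14155 genes, edgeR recovered 66% of the 100 genes given a 2-fold change and 93% of the 100 given a 4-fold change, beside 19 false calls. These shares are over genes of all levels and are not the recovery of the members. The simulated libraries were independent, whereas deviations of same-numbered real libraries had a correlation of 0.521.

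**Figure D1:**
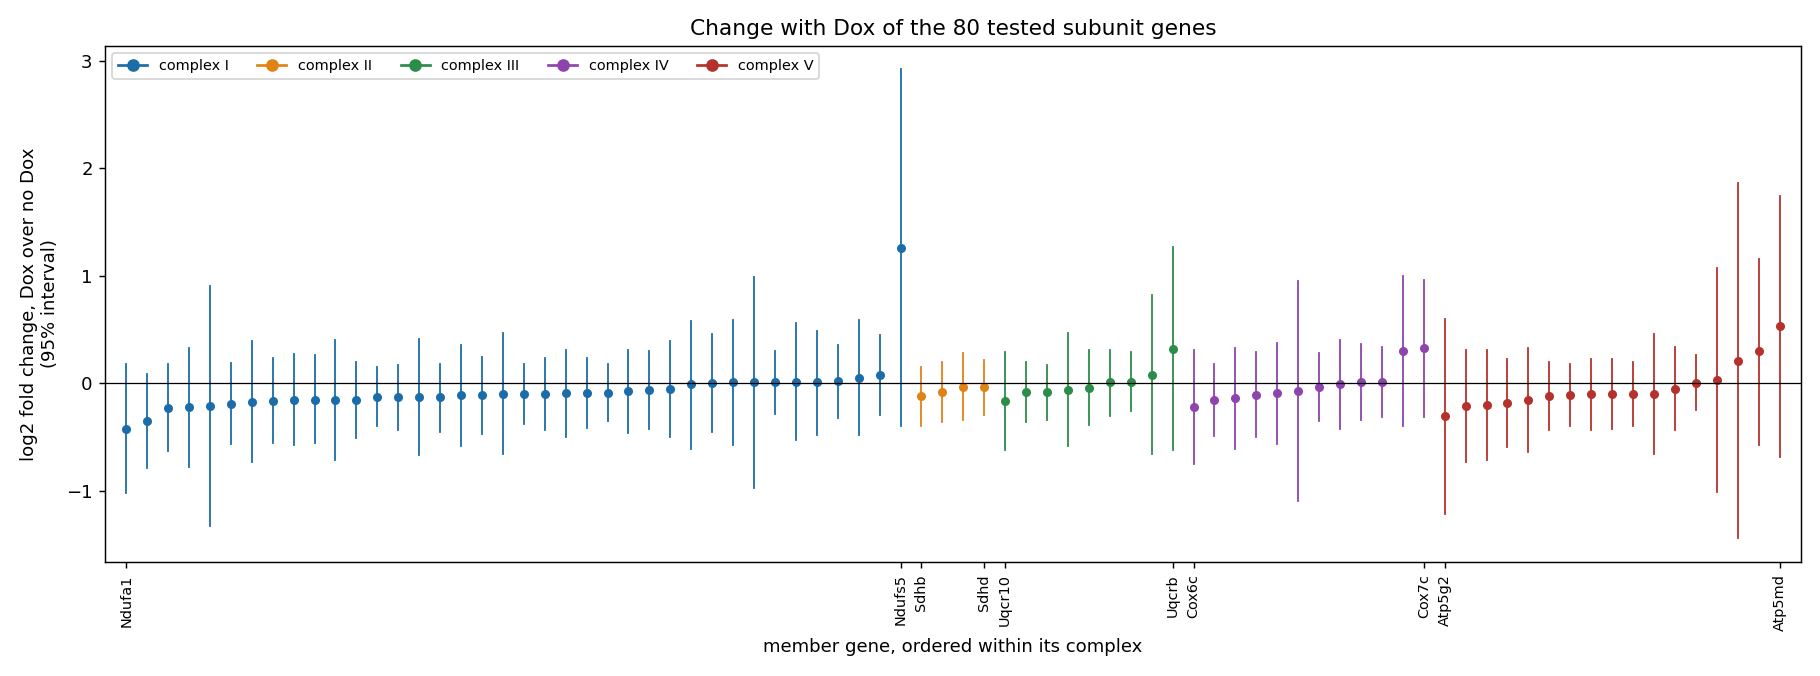
Log2 fold change of Dox over no Dox (vertical axis) for each of the 80 tested members, ordered by value within its complex and named at both ends of each, with 95% intervals as bars and colours for the complexes. Every interval spans 0, and only Ndufs5 (1.26) and Atp5md (0.53), both with few counts, lie above 0.5.

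Summed over their members, the complexes differed by little between the groups. Complex I summed to 1909 and 2270 CPM in the no Dox libraries against 1896 and 2007 CPM in the Dox libraries. Complex II summed to 669 and 651 CPM against 638 and 631 CPM. Complex III summed to 929 and 987 CPM against 924 and 937 CPM. The groups overlapped for complexes I and III and lay apart, with Dox lower, for complex II. Complex IV summed to 377 and 459 CPM in the no Dox libraries against 380 and 413 CPM in the Dox libraries, and complex V to 3476 and 3423 CPM against 3233 and 3189 CPM. The groups overlapped for complex IV, and for complex V the Dox libraries were the lower ones. Atp5a1 and Atp5b alone gave most of the complex V sum. Of the 17 members of complex V, 1 lay wholly lower with Dox, 1 wholly higher, and 15 overlapped. Of the 4 in complex II, 2 lay wholly lower and 2 overlapped. Over all genes tested, the groups lay apart in 38.8%. The ratio of the group means was -0.10, -0.06, -0.04, -0.08 and -0.10 on the log2 scale for complexes I to V. The medians over the tested members were close to these, at -0.10, -0.06, -0.04, -0.05 and -0.10. With 2 libraries in each group no test on such a sum was made.

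**Figure D2:**
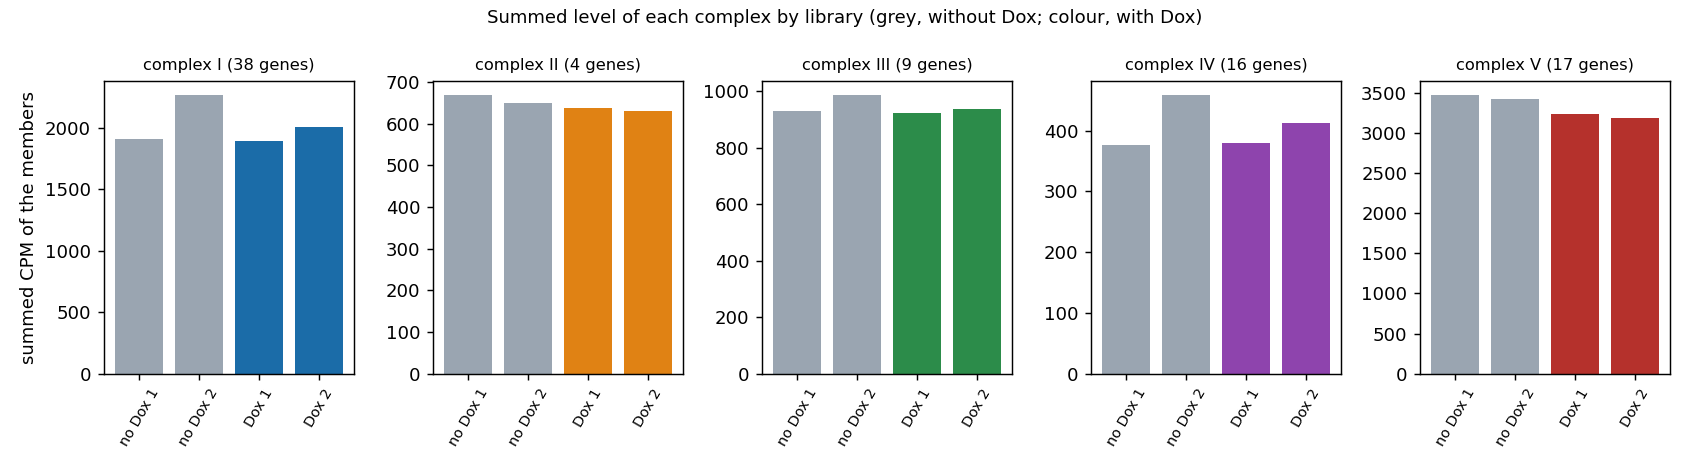
Summed CPM of all members of each complex (vertical axes, from 0) in each of the 4 libraries, without Dox in grey and with Dox in colour. In complexes I, III and IV the highest bar is no Dox replicate 2 (2270, 987 and 459 CPM), and in complexes II and V both Dox bars are below both others.

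In complex I, which oxidises NADH, none of the 38 tested members was called (28 below 0, 10 above). The core subunits that bind flavin and iron-sulfur clusters had log2 fold changes from -0.16 (Ndufv2) to 0.02 (Ndufs7), around the complex median of -0.10. Ndufv1, which holds the flavin, stood at 96.8 and 105 CPM in the no Dox libraries against 93.9 and 95.9 CPM in the Dox libraries (log2 fold change -0.09, SE 0.11, adjusted p = 0.898 in edgeR). Both Dox libraries were just below no Dox replicate 1, which itself was well below no Dox replicate 2. Ndufs1, the largest subunit, stood at 186 and 171 CPM against 173 and 161 CPM (-0.10, SE 0.12). Replicate 1 was the higher library in each group, and the groups overlapped.

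The lowest values in complex I were those of the small accessory subunits Ndufa1 and Ndufa3. Ndufa1, which is needed for assembly, stood at 10.1 and 15.1 CPM in the no Dox libraries against 8.54 and 10.3 CPM in the Dox libraries (log2 fold change -0.42, SE 0.24, 95% interval -1.02 to 0.18, adjusted p = 0.676 in edgeR). The groups overlapped, and without no Dox replicate 2 the difference was -0.10. Ndufa3 stood at 37.7 and 48.4 CPM in the no Dox libraries against 30.2 and 37.5 CPM in the Dox libraries (-0.35, SE 0.18, interval -0.79 to 0.09). Here Dox replicate 2 and no Dox replicate 1 were almost level, and the groups only just lay apart. The exons of Ndufa3 overlap those of Tfpt on the other strand in the annotation, so the counts of this pair may not be fully separated. Of 83 members with a paired transcript, 29 had an exon that overlaps another gene, for 26 a gene on the other strand. The same limit holds for these, which include Ndufs1, Ndufa4l2, Uqcrc2, Cox5a, Atp5a1 and Atp5j, whose exons overlap those of Gabpa. With the replicate number as a block Ndufa3 was the 1 member called lower (adjusted p = 0.0193 in edgeR), in a fit that called 13.4% of all genes in either direction and 6.08% of all genes lower. The labels do not say that these numbers mark a shared batch. The largest difference upward, that of Ndufs5 (1.26, SE 0.68, interval -0.40 to 2.92), rested on 8 and 2 counts in the no Dox libraries against 12 and 32 in the Dox libraries. Ndufb11 was next at 0.08 (SE 0.15). Ndufa4, counted here with complex I by its symbol and now known as a subunit of complex IV, stood at 22.6 and 29.7 CPM against 23.1 and 24.1 CPM (-0.15, SE 0.17). Its relative Ndufa4l2, which is induced by hypoxia, stood at 1.32 and 2.25 CPM against 0.99 and 2.03 CPM (-0.21, SE 0.46), so it remained far below Ndufa4 in all 4 libraries.

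Complex II, succinate dehydrogenase, is also an enzyme of the TCA cycle and is the complex with no mitochondrially encoded subunit. None of its 4 genes was called. Sdha, the flavoprotein, stood at 297 and 264 CPM in the no Dox libraries against 288 and 263 CPM in the Dox libraries (log2 fold change -0.03, SE 0.13). The iron-sulfur subunit Sdhb stood at 115 and 126 CPM against 109 and 112 CPM (-0.12, SE 0.11), the lowest change of the 4. The membrane anchors Sdhc (118 and 123 CPM against 108 and 120 CPM) and Sdhd (139 and 137 CPM against 134 and 136 CPM) had log2 fold changes of -0.08 (SE 0.12) and -0.03 (SE 0.11). Adjusted p-values of the complex ran from 0.833 to 0.987 in edgeR. The intervals of the complex reached from -0.40, in Sdhb, to 0.28, in Sdha.

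In complex III, which passes electrons to cytochrome c, 5 members lay below 0 and 4 above. Uqcrc1, a core protein, stood at 241 and 255 CPM in the no Dox libraries against 248 and 253 CPM in the Dox libraries (0.01, SE 0.11), and Uqcrc2, the other core protein, at 365 and 355 CPM against 339 and 342 CPM (-0.08, SE 0.11). The Rieske iron-sulfur subunit Uqcrfs1 stood at 105 and 108 CPM against 101 and 100 CPM (-0.08, SE 0.10). Cyc1, cytochrome c1, stood at 124 and 144 CPM against 139 and 131 CPM (0.01, SE 0.12). Of these 4, Uqcrc2 and Uqcrfs1 had both Dox libraries below both others, and Uqcrc1 and Cyc1 overlapped. The outer values of the complex were those of the small subunits Uqcr10 (-0.16, SE 0.19) and Uqcrb (0.32, SE 0.38). Uqcrb stood at 0.881 and 1.63 CPM in the no Dox libraries against 1.42 and 1.70 CPM in the Dox libraries, with overlapping groups and few counts.

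Complex IV, cytochrome c oxidase, is built with tissue-specific forms of several small subunits, and several of these were nearly absent. The heart and muscle form Cox6a2 and the testis form Cox8c had 0 counts in all 4 libraries, which allows at most 0.125 CPM in the library of lowest depth. Cox8b, another muscle form, had 1 count, in Dox replicate 1. Cox7b2, a testis form, had 1 and 4 counts in the no Dox libraries against 0 and 8 in the Dox libraries. These 4 genes were the members too low to be tested. Cox7a1, the muscle form, was detected at 2.02 and 2.61 CPM in the no Dox libraries against 1.39 and 2.97 CPM in the Dox libraries (log2 fold change -0.07, SE 0.42). Per kb of transcript it reached 0.213 to 0.394 of the level of Cox7a2, the widely expressed form. Of the muscle markers 0 of 3 tested were called, with Myh7 at 6.49 to 8.96 CPM and Ckm at 0 counts in 3 libraries and 2 in no Dox replicate 1.

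Cox6b2, whose product is known as a testis form of subunit VIb, was expressed at about the level of the widely expressed Cox6b1. Its level was 40.7 and 40.8 CPM in the no Dox libraries against 44.6 and 37.7 CPM in the Dox libraries, and that of Cox6b1 was 37.9 and 42.0 CPM against 36.4 and 44.0 CPM. Per kb of transcript the ratio of Cox6b2 to Cox6b1 was 1.20 and 1.09 without Dox and 1.37 and 0.957 with Dox, so neither form led in every library. Both had a log2 fold change of 0.01 (SE 0.13 for Cox6b2 and 0.15 for Cox6b1). Neither shared a near-identical stretch with another gene or an exon with a neighbour.

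The other tested members of complex IV had log2 fold changes from -0.22 to 0.33. Cox5a, which sits beside the catalytic core, stood at 80.8 and 99.2 CPM in the no Dox libraries against 77.9 and 83.9 CPM in the Dox libraries (-0.15, SE 0.14), and Cox6c had the lowest value of the complex (-0.22, SE 0.22). Cox6a1 was the most abundant member of complex IV per kb of transcript, at a mean of 186 CPM per kb, and had a log2 fold change of -0.11 (SE 0.16), and Cox8a one of -0.03 (SE 0.13). The largest values upward were those of Cox7c (2.31 and 3.10 CPM against 3.40 and 3.39 CPM; 0.33, SE 0.26, adjusted p = 0.804 in edgeR) and Cox5b (1.43 and 1.80 CPM against 1.90 and 2.07 CPM; 0.30, SE 0.29). In both the Dox libraries lay above both others, on few counts. Cox7b (-0.09, SE 0.19), Cox7a2 (-0.14, SE 0.19) and its relative Cox7a2l (-0.01, SE 0.17) overlapped between the groups.

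Complex V held the most abundant members. Atp5b, the catalytic beta subunit, stood at 1390 and 1288 CPM in the no Dox libraries against 1286 and 1219 CPM in the Dox libraries (log2 fold change -0.10, SE 0.13, interval -0.42 to 0.23). Atp5a1, the alpha subunit, stood at 1260 and 1132 CPM against 1149 and 1083 CPM (-0.10, SE 0.14). Dox replicate 1 was level with no Dox replicate 2 in Atp5b and a little above it in Atp5a1. Per kb of transcript they averaged 676 and 468 CPM per kb, the highest levels of all members. Of the 3 genes for the membrane ring subunit c, Atp5g3 was at 283 and 325 CPM against 271 and 289 CPM (-0.12, SE 0.13). Atp5g1 (0.30, SE 0.36) and Atp5g2 (-0.30, SE 0.37) were counted at 0.696 to 1.14 CPM, so Atp5g3 gave nearly all counts of subunit c. Both low genes have near-identical copies elsewhere, over 69.0% and 88.2% of the transcript. Atp5j, coupling factor 6, stood at 110 and 159 CPM against 102 and 130 CPM (-0.21, SE 0.21), and Atp5md, a small membrane subunit, at 0.494 CPM or less in every library (0.53, SE 0.50).

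Most members were higher in replicate 2 than in replicate 1 of both groups. No Dox replicate 2 exceeded no Dox replicate 1 in 72 of 80 members, by a median of 0.33 on the log2 scale. It did so in 51.5% of the 14257 genes tested that had a count in every library. Dox replicate 2 exceeded Dox replicate 1 in 65 members, by a median of 0.15, against 50.7% of those 14257 genes. No Dox replicate 2 was the highest of the 4 libraries in 58 members, against 4021 of 14257 genes in all and 552 of the 948 under 1000 nt. The difference between replicates was larger for short transcripts. In the 54 tested members under 1000 nt it was 0.38 without Dox and 0.20 with Dox, and in the 25 longer ones 0.14 and 0.03. The long transcripts Sdha (-0.17 and -0.13), Ndufs1 (-0.12 and -0.10) and Atp5a1 (-0.15 and -0.09) were lower in replicate 2 in both groups, and the longest, Sdhc (0.06 and 0.16), was not.

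Short genes over the whole table had similar values. Over all genes tested with a count in every library, the 948 under 1000 nt had medians of 0.33 without Dox and 0.16 with Dox, with replicate 2 the higher in 806 and 711 of them, and the 12985 longer ones -0.01 and -0.01. Across the 64 members with a length and a mean of at least 10 CPM, Spearman's rho between length and the replicate difference was -0.56 without Dox (Pearson's r -0.62 on log2 length) and -0.48 with Dox (r -0.48). Across all 79 tested members with a length, rho was -0.55 without Dox (r -0.35) and -0.42 with Dox (r -0.30). These correlations are across genes that share the same libraries, so they are descriptions and carry no p-value. No source used here gives the RNA quality or fragment size of the replicates, and their part in this difference was not tested.

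**Figure D3:**
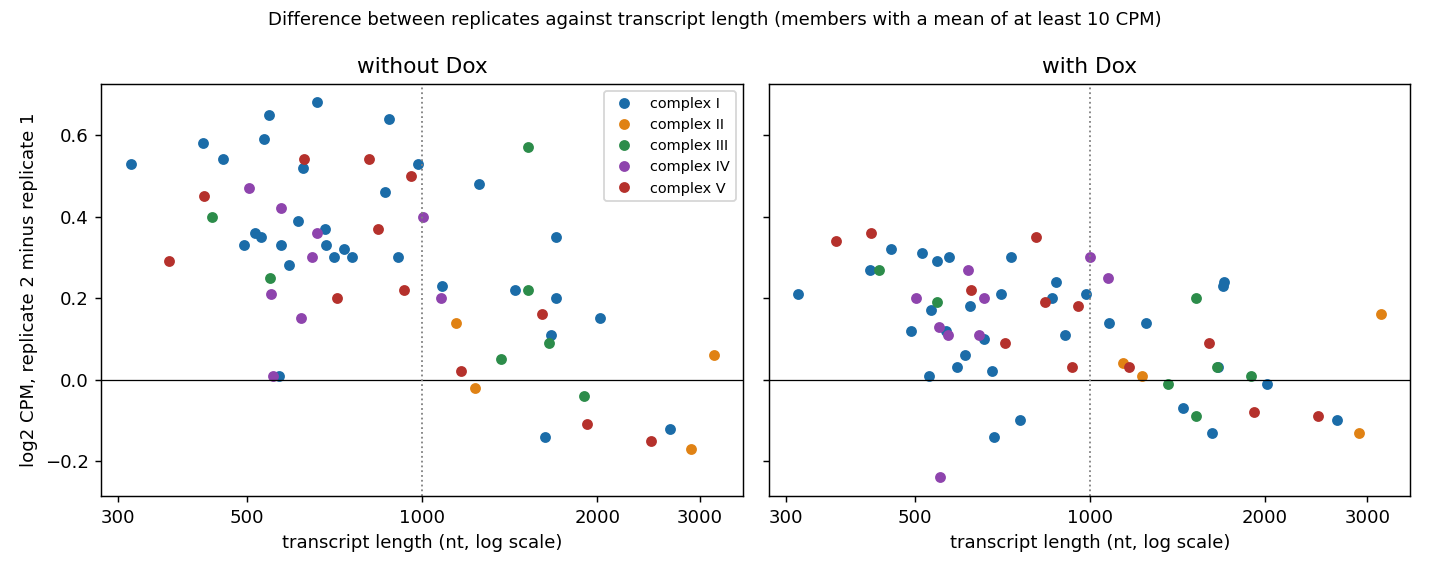
Log2 difference in CPM between replicate 2 and replicate 1 (vertical axis) against transcript length on a log scale (horizontal axis), without Dox on the left and with Dox on the right, for the members with a mean of at least 10 CPM. Most points left of the dotted line at 1000 nt lie above 0, while Sdha (-0.17 and -0.13), near the right edge, lies below 0 in both panels.

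Most of the tested members with low counts had near-identical copies in other genes. Per kb of transcript the 79 tested members with a known length ran from 0.538 to 676 CPM per kb. Of the 26 members with a stretch of at least 50 nt at 95% identity or more in a transcript of another gene, 23 had at least 1 annotated pseudogene among these copies. The 22 with copies over at least 25% of the transcript had a median level of 8.11 CPM per kb, and the 53 with none 77.5 CPM per kb. Under 5 CPM per kb were 11 members: Ndufb4, Ndufs5, Ndufs3, Ndufa4l2, Uqcrb, Cox5b, Atp5md, Atp5g1, Atp5g2, Atp5k and Atp5l. All of these but Ndufa4l2 had such copies. Atp5o (76.7% of the transcript covered, 76.3 CPM per kb) was an exception in the other direction, and Uqcr10 (42.6%) stood at 65.8 CPM per kb. How the authors treated reads that align at several places is not given in the sources used here, and its part in these levels was not tested.

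Coding stretches of 4 of these genes are shown beside a processed pseudogene because a read from a stretch that is identical in both cannot be assigned to 1 of the loci by its sequence. Each line gives the first 60 coding bases of the member's transcript, 5′ to 3′, from the GENCODE M21 sequences, and the aligned bases of the copy. Capitals mark bases that differ between the lines of a pair.
Ndufs5: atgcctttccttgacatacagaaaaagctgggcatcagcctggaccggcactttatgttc
BC002163: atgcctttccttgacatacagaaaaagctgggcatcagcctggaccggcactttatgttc
Atp5g2: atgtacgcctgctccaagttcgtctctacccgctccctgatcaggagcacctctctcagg
Gm10175: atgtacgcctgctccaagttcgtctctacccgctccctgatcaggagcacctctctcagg
Atp5md: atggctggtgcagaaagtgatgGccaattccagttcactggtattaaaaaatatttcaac
Gm35857: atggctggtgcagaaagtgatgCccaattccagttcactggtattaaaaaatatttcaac
Atp5l: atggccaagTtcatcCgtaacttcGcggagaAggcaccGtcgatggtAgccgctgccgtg
Gm4853: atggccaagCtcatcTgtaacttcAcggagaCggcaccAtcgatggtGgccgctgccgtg
The 60 bases of Ndufs5 (chromosome 4) and of BC002163 (chromosome 16, within the locus of Ndufs5-ps) were identical, with 99.4% identity over 319 aligned nt. Those of Atp5g2 (chromosome 15) and Gm10175 (chromosome 7) were identical too (100% identity over 441 aligned nt). Atp5md and Gm35857 differed at 1 base and Atp5l and Gm4853 at 6 bases. Atp5l, a subunit of the membrane part, had near-identical stretches in 10 other genes, the most of any member.

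The pseudogene Ndufs5-ps was counted at 10.2 and 13.5 CPM in the no Dox libraries against 10.3 and 13.5 CPM in the Dox libraries (log2 fold change 0.01, SE 0.22), between 23.1 and 165 times the count of Ndufs5 in the same library. Counts of the pair may not be separated, so neither value is a measure of the transcription of its locus. The members with large copies were also those with the widest spread of fold changes, from -0.30 to 1.26, and 12 of these 22 lay above 0, where 44 of 53 members without a copy lay below 0. Of the 22, 10 were under 5 CPM per kb, against 1 of the 53. The part of low counts in the spread and in the signs was not tested. With the members that have a near-identical copy left out, the median log2 fold change was -0.10 in place of -0.09.

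**Figure D4:**
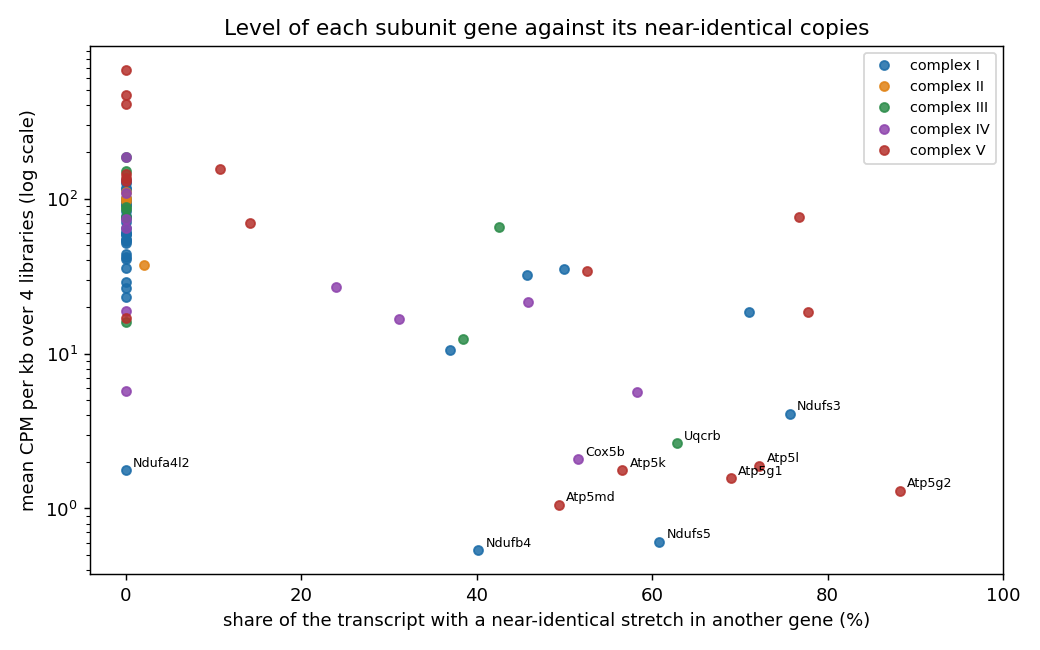
Mean level of each tested member in CPM per kb of transcript over the 4 libraries (vertical axis, log scale) against the share of its transcript with a near-identical stretch in another gene (horizontal axis, percent), coloured by complex. Names mark points under 5 CPM per kb. Of the 11 points under 5 CPM per kb, 10 lie at shares of 40.2% or more, and Ndufa4l2 alone lies at 0.

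Promoter sequence was described for the members with a window in the RefSeq table (GRCm38.p6), which spans 250 bases before and 50 after the start. Of the 80 tested members 66 had such a window, and 11075 of all genes tested did. The core bound by NRF1, searched as GCGC, then any base, then TGCGC, was found in 25.8% of the members and in 10.9% of the tested genes. The letters CCGGAAG, bound by ETS factors such as GABPA, were found in 25.8% and 18.5%, AAGATGG, bound by YY1, in 16.7% and 7.88%, and GGGCGG, bound by SP and KLF factors, in 40.9% and 69.2%. Both strands were searched, and CCGGAAG and AAGATGG can overlap by 3 letters. A match is a description of these letters only, and no binding was measured.

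Promoters of 3 members are shown. Those of Sdhd and Cox6a1 are examples of windows that hold both the NRF1 and the ETS letters, and that of Ndufa3 is shown because its p was the lowest of the members. Other members also hold both, and their windows are not shown. Capitals mark matches to the NRF1, ETS or YY1 letters on either strand.
Sdhd (chr9:50603800-50604099, minus strand): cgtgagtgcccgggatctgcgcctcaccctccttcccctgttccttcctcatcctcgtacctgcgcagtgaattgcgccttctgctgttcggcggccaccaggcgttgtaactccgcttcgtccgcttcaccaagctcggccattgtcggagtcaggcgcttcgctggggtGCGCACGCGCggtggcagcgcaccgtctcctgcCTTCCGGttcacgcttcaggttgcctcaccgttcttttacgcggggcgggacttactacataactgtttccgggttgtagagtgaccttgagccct
Cox6a1 (chr5:115348909-115349208, minus strand): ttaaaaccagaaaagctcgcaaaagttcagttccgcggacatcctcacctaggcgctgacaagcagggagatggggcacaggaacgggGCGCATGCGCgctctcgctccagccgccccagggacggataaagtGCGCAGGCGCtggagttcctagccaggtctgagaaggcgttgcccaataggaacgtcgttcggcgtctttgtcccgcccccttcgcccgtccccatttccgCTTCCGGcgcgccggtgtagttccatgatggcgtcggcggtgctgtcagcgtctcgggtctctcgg
Ndufa3 (chr7:3617123-3617422, plus strand): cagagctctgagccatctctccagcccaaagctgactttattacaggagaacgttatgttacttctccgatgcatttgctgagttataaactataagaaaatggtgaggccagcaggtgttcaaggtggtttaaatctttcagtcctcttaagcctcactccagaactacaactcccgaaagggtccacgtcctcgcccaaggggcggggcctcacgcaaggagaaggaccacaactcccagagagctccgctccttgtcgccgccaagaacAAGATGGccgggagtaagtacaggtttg
Sdhd holds 1 match to the NRF1 and 1 to the ETS letters, Cox6a1 holds 2 and 1, and Ndufa3 holds 1 match to the YY1 letters and none to the others of these 3. The genes for the corresponding factors were measured too. Nrf1 stood at 66.3 and 61.5 CPM in the no Dox libraries against 63.5 and 56.3 CPM in the Dox libraries (log2 fold change -0.09, SE 0.12), Gabpa at 145 and 123 CPM against 119 and 116 CPM (-0.19, SE 0.12), and Yy1 at 129 and 127 CPM against 122 and 130 CPM (-0.02, SE 0.11). None of these 3 was called by edgeR. The exons of Gabpa overlap those of Atp5j on the other strand, so the counts of this pair may not be fully separated.

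Ppargc1a, the gene for the coactivator PGC-1α, was 10.8-fold higher with Dox while the subunit genes described above were not called. It had 9 and 8 counts (0.33 and 0.327 CPM) without Dox and 144 and 180 counts (3.85 and 3.30 CPM) with Dox, and its log2 fold change was 3.43 (SE 0.33, 95% interval 2.62 to 4.24, adjusted p = 0.00888 in edgeR). Both Dox libraries lay far above both others. Its mean with Dox was 3.57 CPM. In its list of 18 genes for mitochondrial biogenesis and mitochondrial DNA upkeep it was the 1 gene called. Its relatives Ppargc1b (4.95 and 4.28 CPM against 4.60 and 4.03 CPM; -0.10, SE 0.22) and Pprc1 (-0.04, SE 0.11) were not called, nor were Tfam, which packages mitochondrial DNA (-0.18, SE 0.11), and Esrra, a nuclear receptor partner of PGC-1α (0.11, SE 0.13). The median of the list was -0.10.

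Other genes of the pathway showed few calls. Among 48 tested assembly factors for the 5 complexes 0 were called in edgeR, and 0 passed an unadjusted p under 0.05, with a median log2 fold change of -0.06. Examples are Acad9 (-0.10, SE 0.13) and Ndufaf7 (-0.05, SE 0.12) for complex I, Sdhaf2 (-0.16, SE 0.16) and Sdhaf1 (0.04, SE 0.19) for complex II, and Uqcc1 (-0.07, SE 0.12) and Ttc19 (0.03, SE 0.14) for complex III. For complex IV they are Lrpprc, which stabilises mitochondrial mRNAs (-0.04, SE 0.13), and Coa5 (-0.05, SE 0.11), and for complex V Tmem70 (-0.15, SE 0.12) and Atpaf2 (-0.08, SE 0.14). Of the subunit genes outside the symbol rule, Cox4i1, the main form of subunit IV, stood at 245 and 298 CPM in the no Dox libraries against 242 and 270 CPM in the Dox libraries (-0.09, SE 0.14), and Ndufab1, the mitochondrial acyl carrier protein, at 3.19 and 4.86 CPM against 2.67 and 3.72 CPM (-0.32, SE 0.31). The hypoxia and lung form Cox4i2 was at most 0.881 CPM. Cycs, the somatic cytochrome c, was counted at 0.587 to 0.939 CPM, and its testis form Cyct was too low to be tested. Per kb of transcript, Ndufab1 and Cycs averaged 1.04 and 0.224 CPM per kb. Near-identical copies were searched for the members only, so their part in these 2 low levels was not tested.

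None of 17 TCA cycle genes was called, with log2 fold changes from -0.18 to 0.06 and a median of -0.05. The 2 most abundant by CPM, Idh2 and Cs, had log2 fold changes of 0.06 (SE 0.11) and -0.11 (SE 0.12). None of 16 genes for carriers, porins and ubiquinone synthesis was called, with a median of -0.08 and 1, Slc25a5, lower at an unadjusted p under 0.05. Over all genes tested, 4.02% were lower at that unadjusted threshold. Slc25a5, an ADP/ATP carrier, was called lower with the replicate number as a block, in a fit that called 6.08% of all genes lower. The ADP/ATP carrier Slc25a4 stood at 379 and 426 CPM against 375 and 398 CPM (-0.06, SE 0.13), and the phosphate carrier Slc25a3 had -0.06 (SE 0.12).

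Of 19 glycolysis genes 1 was called. Eno2, the neuronal enolase, stood at 8.59 and 9.10 CPM in the no Dox libraries against 19.1 and 21.1 CPM in the Dox libraries (log2 fold change 1.18, SE 0.16, adjusted p = 0.0305 in edgeR), with the groups well apart. At an unadjusted p under 0.05, 1 gene of the list was higher and 3 (Gapdh, Pgk1 and Ldha) were lower. Over all genes tested, 6.26% were higher and 4.02% lower at this threshold. The list's median was -0.29. With the replicate number as a block 6 were called lower (Aldoa, Gapdh, Ldha, Pgk1, Pkm and Slc2a1), in a fit that called 6.08% of all genes lower. Hk2 and Slc2a3 had log2 fold changes of -0.39 (SE 0.32) and -0.49 (SE 0.35) in the main fit. Ldha, which makes lactate, stood at 511 and 465 CPM against 378 and 354 CPM (-0.42, SE 0.13, adjusted p = 0.286), with both Dox libraries below both others. The glycolysis genes summed to 5924 and 3972 CPM in the no Dox libraries against 4149 and 3652 CPM in the Dox libraries. Per kb of transcript Gapdh, Eno1 and Pgam1 were counted at means of 5.25, 3.89 and 1.61 CPM per kb, far below Aldoa at 277 and Ldha at 269 CPM per kb. Near-identical copies were not searched for genes outside the members, so their part in this sum and in the value of Gapdh was not tested. No Dox replicate 1 was the high library in the sum, for example in the glucose transporter genes Slc2a1 (1070 and 644 CPM against 646 and 495 CPM) and Slc2a3 (1444 and 656 CPM against 809 and 690 CPM). It was the lowest of the 4 libraries in 35 of 80 subunit genes. Among tested genes with a count in every library, it was lowest in 435 of 948 under 1000 nt and 4122 of 14257 in all.

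**Figure D5:**
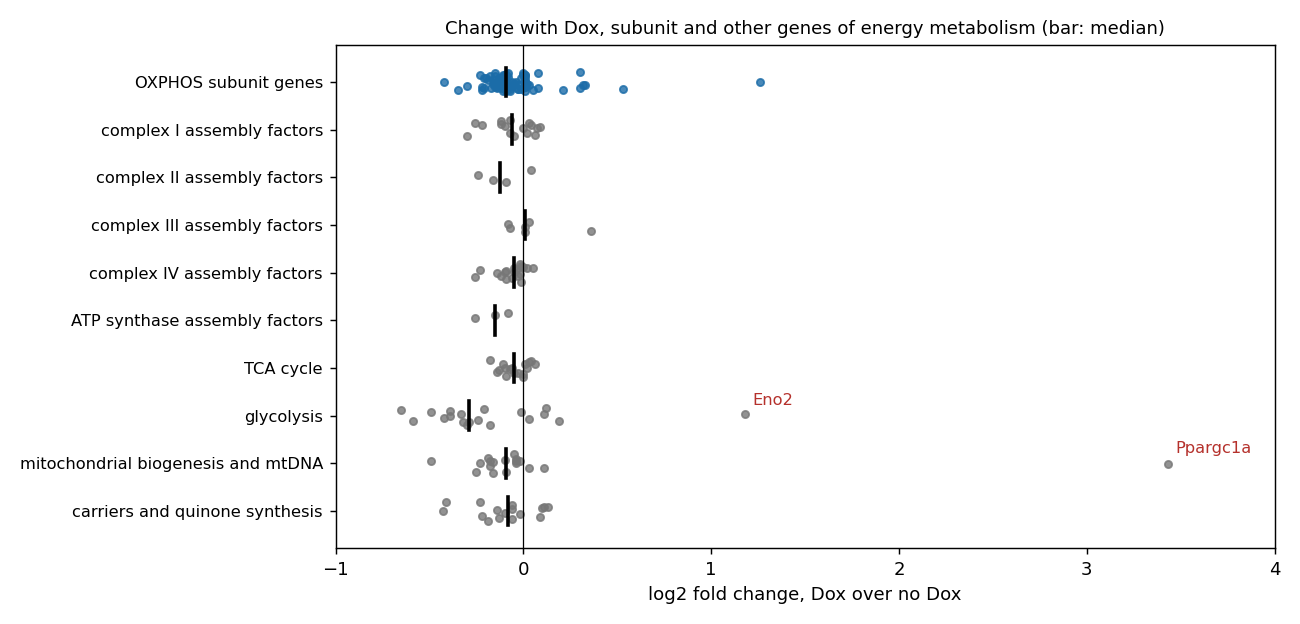
Log2 fold change of Dox over no Dox (horizontal axis) for the tested subunit genes and for the tested genes of 9 other lists of energy metabolism (rows), with points for genes, a vertical bar for each median and names for genes with an adjusted p under 0.05. Ppargc1a (3.43) and Eno2 (1.18) are the named genes, and the medians lie between -0.29 and 0.01.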

How the data were processed

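RNA libraries were made from 4 samples with the Illumina TruSeq protocol, per the labels' protocols, and the titles gave groups and replicate numbers. TopHat and the build mm9 are named in the submitters' processing notes. Not given in the sources used here are the counting tool, its annotation, its use of strand and its treatment of multiply aligned reads. The authors deposited whole-number counts for each numbered part of a RefSeq gene unit (208825 parts). A read that spans parts may be counted in each. Rows that name no gene (reads outside genes 13.6% to 15.8% of all counts, ambiguous reads 0.411% to 0.521%) stayed out of totals and tests.

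Parts were summed to 21822 gene units and named through RefSeq GRCm38.p6 and GENCODE M21 (97.0% of 27601 identifiers matched). Of units with the same symbol, only that with most counts was kept under it. The test was edgeR 4.0.16 in R 4.3.3 (TMM, default filter on low counts, robust quasi-likelihood F test, Benjamini-Hochberg adjustment at 0.05 over all genes). Alternatives used DESeq2 1.42.0 and limma 3.58.1. Standard errors are the log2 fold change over the root of F, and 95% intervals use the fit's degrees of freedom. CPM are scaled by TMM. CPM per kb divide by the length of the GENCODE transcript of median length among those paired with the unit. Near-identical stretches were found with blastn 2.17.0 against GENCODE transcripts outside the member's locus. No genome was searched, so copies without an annotated transcript were not counted. The floor for 0 counts was 3 counts, and it covers counting error only. Counts of both replicate pairs differed beyond sampling noise; chi-square over its degrees of freedom was 36.7 (no Dox) and 33.1 (Dox). The test was checked on simulated counts.

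The members, the other lists and the motifs were chosen with earlier results of these data known. Named are called members, the members at both ends of each complex by fold change and by level, core subunits, tissue forms, untested members and, per list, called genes or else the most abundant. Members named for copies or for transcript length, and Slc2a1, Slc2a3, Slc25a5, Gapdh, Pgk1, Ldha, Aldoa, Pkm, Hk2, Eno1, Pgam1, Ppargc1b, Pprc1, Tfam, Esrra, Nrf1, Gabpa and Yy1, lie outside these rules and were chosen after their values were seen. Ndufb1, Ndufb4b and Ndufb4c were not analysed here. Some single-gene values are not reported here.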

Additional observations from a re-analysis of the deposited data

How the results depend on the processing

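The number of subunit genes called higher stayed at 0 under every alternative run: size factors of DESeq2, library totals, DESeq2, limma-voom, no filter, only genes with a mean of 5 CPM, the replicate block, the largest part as a gene's count, and each library left out. The number called lower was 0 as well, except with the replicate block, where it was 1 (Ndufa3, log2 fold change -0.35, adjusted p = 0.0193; that fit called 13.4% of all genes). The replicate numbers share only a number in the labels. Deviations from the group means of same-numbered libraries had a correlation of 0.521. Over all genes, 175 were higher and 8 lower in the main test, 1047 and 869 with the replicate block, 403 and 116 with DESeq2, 295 and 46 with no filter and 104 and 4 with a mean of 5 CPM; 16 were lower with library totals and 14 with the largest part. With a library left out, 276 to 283 were higher and 22 to 124 lower.

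The median log2 fold change of the members ran from -0.23 to 0.08 with a library left out, that of complex I from -0.24 to 0.10, of complex II from -0.07 to -0.05, of complex III from -0.10 to 0.09, of complex IV from -0.18 to 0.09 and of complex V from -0.21 to 0.07. The values above 0 came without no Dox replicate 2 and, for complexes III and IV, also without Dox replicate 1 (0.03 and 0.04). The cause was not tested. The call for Ppargc1a held under every alternative that tested it (log2 3.12 to 3.55); with a mean of 5 CPM it was not tested. Of the other lists, the block called 6 glycolysis genes and 1 carrier gene lower, against 0 in each in the main test. The block called 6.08% of all genes lower. Leaving out members with copies was chosen after seeing the data. A 2-fold change in either direction lies outside the interval for 69 of 80 members.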
